A study of Mus musculus with 6 samples.

Results

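C-type lectin receptors are the membrane proteins through which macrophages bind sugars and lipids of fungi and mycobacteria, and some ligands from dying cells. The 9 genes described here, Clec4a1, Clec4a2, Clec4a3, Clec4d, Clec4e, Clec4n, Clec5a, Clec7a and Clec12a, were taken by symbol from a count table of 46095 genes. All 9 were found and all 9 passed the filter on low counts. The libraries came from bone marrow-derived macrophages of C57BL/6 mice aged 56 days, from Cd226-/- animals (3 libraries) and wild-type (WT) animals (3 libraries). The deleted gene encodes CD226 (DNAM-1), an activating receptor of immune cells, and the labels give neither the deleted part of the gene nor any cell type restriction. Cells of both genotypes had 7 days of M-CSF (20 ng/ml), then 24 h of IFN-γ (20 ng/ml) together with LPS (100 ng/ml). All levels are therefore those of the stimulated state, and unstimulated cells were not analysed here. No label ties a replicate to its own mouse or culture; p-values therefore cover the spread among these libraries alone, and that spread may be technical.

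The receptors fall into activating and inhibitory types. Mincle (Clec4e), MCL (Clec4d) and Dectin-2 (Clec4n) signal through the FcRγ adaptor (Fcer1g), and MDL-1 (Clec5a) through DAP12 (Tyrobp). Dectin-1 (Clec7a) carries its own activation motif. All of these signal through the kinase Syk, and for the Dectins and Mincle the CARD9, BCL10 and MALT1 complex then activates NF-κB. MICL (Clec12a) and DCIR1 (Clec4a2) carry an inhibitory motif that recruits phosphatases such as SHP-1 (Ptpn6), and Clec4a1 and Clec4a3 are close relatives of Clec4a2.

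Total counts were 16925955 to 18867799 per Cd226-/- library and 16838527 to 21658061 per WT library. In principal components of log2 CPM (counts per 1000000 scaled counts) the second component (15.5% of variance) set Cd226-/- replicate 1 apart from replicates 2 and 3, so member values are also given without it or with it alone where that matters. Cd226 itself had 11, 10 and 8 counts in Cd226-/- and 5, 17 and 23 counts in WT, too few to check the genotype labels. The macrophage label was met by its markers: Adgre1 (F4/80) averaged 2367 ± 30.7 CPM in Cd226-/- and 1978 ± 139 CPM in WT (SD, n = 3 each), and the M-CSF receptor gene Csf1r 1163 ± 20.8 CPM in Cd226-/- and 1420 ± 29.5 CPM in WT (SD, n = 3 each).

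Of the 9 receptors, 5 fell and 2 rose in Cd226-/- macrophages at an adjusted p under 0.05 (edgeR's quasi-likelihood test, Benjamini-Hochberg over 13215 genes). Clec4a2, Clec4n, Clec7a, Clec4a1 and Clec4d fell, Clec5a and Clec12a rose, and Clec4e and Clec4a3 did not pass. The share called was 30.9% among all genes tested (14.8% lower and 16.1% higher) and 39.6% among the 6440 genes averaging 20 CPM or more, a level that all 9 receptors exceeded. Over all genes 2130 rose and 1956 fell; with libraries scaled by total count alone the split was 1773 and 2764, and the receptors' own counts stayed at 2 and 5. The 3 Cd226-/- values lay wholly above or below the 3 WT values for 7 of the 9 receptors, against 44.3% of all genes tested and 52.9% of those with at least 20 CPM. The median log2 fold change was -0.24 over the receptors and -0.0045 over all genes tested. In bulk RNA, fewer cells expressing a receptor and less RNA per cell cannot be told apart.

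**Figure D1:**
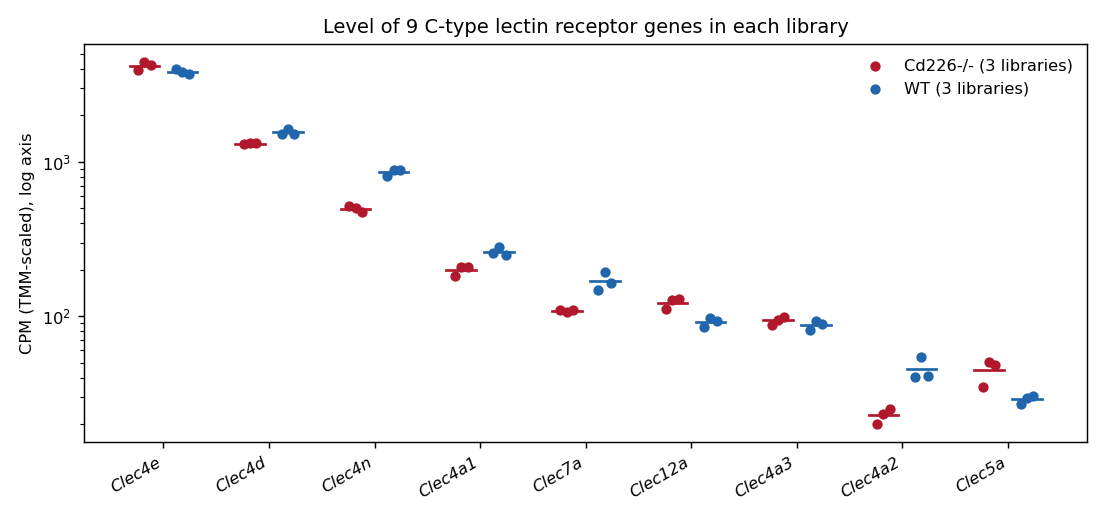
Level of each receptor gene in each library, in CPM scaled by TMM on a log axis, with Cd226-/- libraries in red at the left of each pair, WT libraries in blue, and a bar at the mean of 3. Clec4n, Clec4a2, Clec7a, Clec4a1 and Clec4d lie lower in every Cd226-/- library than in any WT library, Clec5a and Clec12a lie higher, and the 2 sets overlap for Clec4e and Clec4a3.

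Dectin-2 (Clec4n), which binds fungal mannans, had the largest fall among the 3 most abundant receptors. Clec4n had 519, 502 and 473 CPM in Cd226-/- macrophages, against 817, 887 and 885 CPM in WT macrophages. No Cd226-/- library came near a WT library. The log2 fold change was -0.79 ± 0.053 (SE; adjusted p = 2.05e-10), a level 0.577 times that of WT. The 15 alternatives gave -0.85 to -0.73 and all passed.

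MCL (Clec4d), which pairs with Mincle and with Dectin-2 on the cell surface, fell much less. It had 1305, 1320 and 1318 CPM in Cd226-/-, against 1518, 1635 and 1508 CPM in WT. The Cd226-/- libraries were nearly equal and all lay below the WT libraries, with a log2 fold change of -0.24 ± 0.050 (SE; adjusted p = 8.25e-04).

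Mincle (Clec4e), the receptor for mycobacterial cord factor, did not pass. It had 3954, 4437 and 4251 CPM in Cd226-/-, against 3978, 3844 and 3704 CPM in WT. Cd226-/- replicate 1 lay just under the highest WT library and the other two lay above all WT libraries. The log2 fold change was 0.13 (95% interval 0.019 to 0.25, unadjusted; adjusted p = 0.0702), so that a rise of up to 0.25 on the log2 scale is within the interval. With all 6 libraries Clec4e passed by DESeq2's Wald test (adjusted p = 0.0371), by limma-voom (0.0490) and when only genes averaging 5 CPM or more were tested by edgeR (0.0467). It also passed without Cd226-/- replicate 1 (adjusted p = 0.00203), and its log2 fold change was 0.05 with that replicate alone (adjusted p = 0.656); these were the lowest and highest adjusted p of its 15 alternatives.

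Dectin-1 (Clec7a), the receptor for fungal β-glucan, fell. It had 110, 107 and 110 CPM in Cd226-/-, against 148, 194 and 164 CPM in WT. The spread lay mainly among the WT libraries (108.7 ± 1.78 CPM in Cd226-/- and 168 ± 23.3 CPM in WT, SD, n = 3 each), and the groups did not overlap. The log2 fold change was -0.63 ± 0.081 (SE; adjusted p = 7.91e-05). With Cd226-/- replicate 1 as the only library of its genotype it was -0.61 and did not pass (adjusted p = 0.134), over a range of 4.13e-28 to 0.134 for all its alternatives.

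MDL-1 (Clec5a), the DAP12-coupled receptor known for binding dengue virus, rose. It had 34.7, 50.7 and 48.2 CPM in Cd226-/-, against 26.8, 29.3 and 30.6 CPM in WT. All Cd226-/- libraries were above WT, and replicate 1 was the nearest to it. The fold was 1.54 (log2 fold change 0.62 ± 0.13 (SE); adjusted p = 0.00563). The size of the rise varied with that replicate: the log2 fold change was 0.77 without replicate 1 (adjusted p = 6.36e-09) and 0.27 with it alone. Over the alternatives with more than 1 library per genotype, adjusted p ranged from 8.98e-13 to 0.0346.

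Among the receptors with an inhibitory motif, Clec12a and Clec4a2 moved in opposite directions. Clec12a, which is known to bind uric acid crystals, had 111, 128 and 129 CPM in Cd226-/-, against 84.9, 97.1 and 93.3 CPM in WT. It rose 1.34-fold (log2 fold change 0.42 ± 0.064 (SE); adjusted p = 4.06e-05). With Cd226-/- replicate 1 alone its log2 fold change was 0.28, and it still passed (adjusted p = 0.00461, the highest of its alternatives, the lowest being 8.96e-11).

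Clec4a2 had the largest change of the 9. It had 20.0, 23.3 and 25.1 CPM in Cd226-/-, against 40.2, 54.2 and 41.1 CPM in WT. Its level in Cd226-/- was 0.505 times that of WT (log2 fold change -0.98 ± 0.12 (SE); adjusted p = 6.18e-05), and WT replicate 2 was the highest library. Without WT replicate 2 the log2 fold change was -0.84 (adjusted p = 3.91e-06, within a range of 2.98e-31 to 9.68e-04 for all alternatives).

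The other two genes of the DCIR group differed from each other. Clec4a1 had 181, 209 and 209 CPM in Cd226-/-, against 256, 279 and 249 CPM in WT, and fell (log2 fold change -0.39 ± 0.060 (SE); adjusted p = 4.06e-05). Clec4a3 had 88.1, 95.2 and 99.1 CPM in Cd226-/-, against 81.2, 93.8 and 88.9 CPM in WT. The ranges overlapped and Clec4a3 did not pass (log2 fold change 0.099, 95% interval -0.029 to 0.23; adjusted p = 0.239). The DCIR genes are paralogs, and how reads matching more than 1 place were counted is not given in the sources used here. Of the 50-base windows of the longest coding transcript, 8.92% of those of Clec4a2 also occur in transcripts of other genes (217 windows, 114 of them in the paralog Clec4a4), as do 0.932% of those of Clec4n; none do for the other 7 receptors. Clec4a4 had only 44 counts over all 6 libraries. It is 1 of 447 other genes whose transcripts hold a window of Clec4a2, and reads from the rest were not examined.

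**Figure D2:**
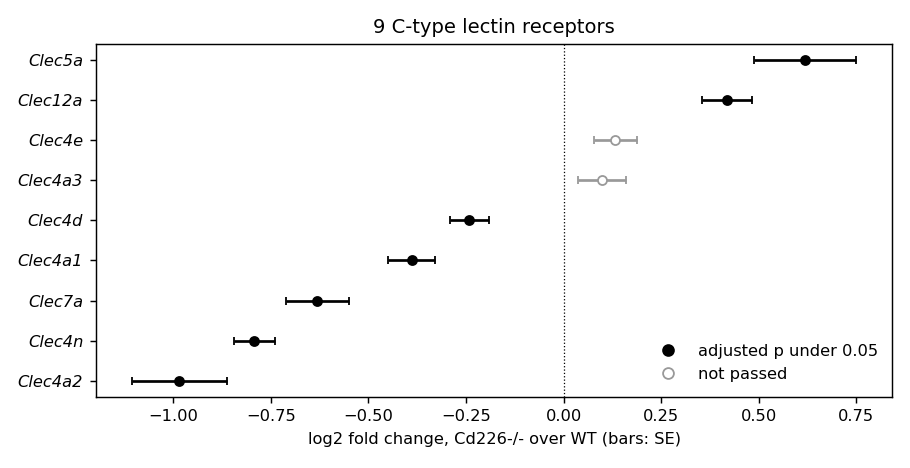
Log2 fold change of each receptor gene, Cd226-/- over WT, with bars for the SE from edgeR; filled points passed an adjusted p under 0.05. The values run from -0.98 (Clec4a2) to 0.62 (Clec5a), with Clec4e and Clec4a3 as the open points.

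Levels of different genes were compared per exonic length. In Cd226-/- macrophages the order was Clec4e (1674 ± 96.8 CPM per kb), Clec4d (993 ± 6.08), Clec4n (401 ± 18.8), Clec4a1 (128 ± 10.3), Clec4a3 (71.0 ± 4.20), Clec7a (47.7 ± 0.782), Clec12a (44.7 ± 3.72), Clec5a (11.6 ± 2.24) and Clec4a2 (7.78 ± 0.887; all SD, n = 3). In WT macrophages it was Clec4e (1526 ± 54.5 CPM per kb), Clec4d (1174 ± 53.4), Clec4n (695 ± 32.2), Clec4a1 (168 ± 10.2), Clec7a (74.0 ± 10.2), Clec4a3 (66.3 ± 4.80), Clec12a (33.4 ± 2.27), Clec4a2 (15.4 ± 2.68) and Clec5a (7.57 ± 0.510; all SD, n = 3). The top 4 places were the same in both genotypes. Across libraries, values overlapped for the neighbours Clec7a and Clec12a in Cd226-/-, and for Clec7a and Clec4a3 in WT. Within each library, by exonic length, Clec7a was the higher of both pairs. In WT it had 64.9, 85.0 and 71.9 CPM per kb, against 61.2, 70.7 and 67.0 for Clec4a3. With the longest coding transcript as the length, the mean of Clec12a came before that of Clec7a in Cd226-/-, so that pair cannot be ordered. The lowest 2 places were exchanged between genotypes, Clec4a2 being last in Cd226-/- and Clec5a last in WT.

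The make-up of the family shifted accordingly. Clec4e made up 48.1% to 50.6% of the summed CPM per kb of the 9 receptors in Cd226-/- libraries, against 39.4% to 42.4% in WT libraries. A share also rises when other parts of the sum fall, as Clec4n and Clec4d did, and the level of Clec4e itself did not pass. Clec4n made up 11.2% to 12.8% in Cd226-/-, against 17.6% to 19.4% in WT. Clec4d made up 28.6% to 30.2% in Cd226-/-, against 30.8% to 31.9% in WT. The 3 genes, which are next to each other on the chromosome, thus held most of the receptor RNA in both genotypes.

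**Figure D3:**
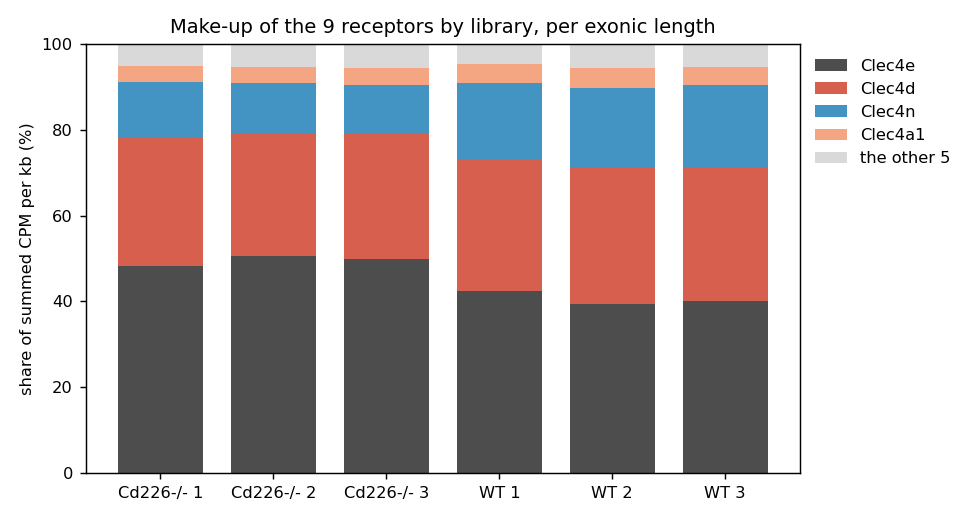
Share of the summed CPM per kb of exon held by each receptor in each library, in percent, with the 3 Cd226-/- libraries at the left and the 3 WT libraries at the right. The Clec4e part is 48.1% to 50.6% in Cd226-/- and 39.4% to 42.4% in WT, and the Clec4n part is narrower in every Cd226-/- library. The level of Clec4e itself did not pass, and its share also rises when other parts of the sum fall.

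Ratios within a library do not depend on scaling between libraries. Clec4d per Clec4e, by exonic length, was 0.628, 0.566 and 0.590 in Cd226-/-, against 0.726, 0.809 and 0.775 in WT. Clec4n per Clec4d was 0.424, 0.405 and 0.383 in Cd226-/-, against 0.573, 0.578 and 0.625 in WT. The groups did not overlap in either ratio. Clec7a per Clec12a averaged 1.07 ± 0.105 in Cd226-/- and 2.21 ± 0.172 in WT, and Clec4a2 per Clec4a3 0.109 ± 0.00614 in Cd226-/- and 0.232 ± 0.0271 in WT (SD, n = 3 each). These pairs were chosen after the values were seen and were not tested.

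The profiles over the 6 libraries were compared between receptors. Likeness was measured as the root mean square difference of log2 CPM after centring each gene on its own mean. The genotype difference stays in such a profile, so nearness reflects the fold changes given above and is not separate from them. Clec4n and Clec7a were each other's nearest receptor (0.13), as were Clec4a1 and Clec4d (0.100), Clec4a3 and Clec4e (0.091), and Clec5a and Clec12a (0.14); the nearest receptor to Clec4a2 was Clec4n (0.20). Many other genes were closer still: the rank of the nearest receptor ran from 56 (for Clec4a2) to 1736 (for Clec4d). Of 9542 other genes averaging 5 CPM or more, Pcx, encoding pyruvate carboxylase, was nearest to Clec4n (0.035), Akr1b3, an aldose reductase gene, to Clec7a (0.046), Sort1, encoding the sorting receptor sortilin, to Clec4a2 (0.095), Nf2, encoding merlin, to Clec4a1 (0.028) and Fyb, an adaptor protein gene, to Clec4d (0.019). Med14, a Mediator subunit gene, was nearest to Clec4e (0.026), Ttc5 to Clec4a3 (0.019), Slx4ip to Clec12a (0.016) and Gm10260 to Clec5a (0.044).

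All 9 genes lie on chromosome 6 (GENCODE M21, GRCm38). Clec4a1 (122921848 to 122934619), Clec4a3 (122952515 to 122969875), Clec4a2 (123106428 to 123143999), Clec4n (123229843 to 123247021), Clec4d (123262111 to 123275265) and Clec4e (123281789 to 123289870, reverse strand) form a cluster of 368 kb. Clec12a (129342691 to 129365303) and Clec7a (129461591 to 129472779, reverse strand) lie within 130 kb of each other, and Clec5a (40574894 to 40585821, reverse strand) stands alone. No exon of the 9 overlaps an exon of another annotated gene. In the first cluster all receptors that passed fell (Clec4a1, Clec4a2, Clec4n and Clec4d), while Clec4a3 and Clec4e did not pass. In the second, directions were mixed: Clec12a rose while Clec7a fell. Whether direction follows position was not tested.

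Promoter sequences (250 bases before to 50 after the annotated start, RefSeq, GRCm38.p6) were found for 8 of the 9. For 6 of them the start used lies at the GENCODE gene start or at most 16 bases from it; for Clec4a2 it lies 16.3 kb, and for Clec12a 7.55 kb, inside the GENCODE gene start given above, so these windows belong to a start further into the gene. They were searched for short motifs of factors that act in macrophages, on both strands except for the TATA motif. The PU.1 motif GAGGAAG was in 4 of the 8 (Clec5a, Clec4a1, Clec4d and Clec12a), against 13.6% of 32851 promoters. The C/EBP motif TTGCNNAA was in Clec4e and Clec12a (10.8% of promoters), the AP-1 motif TGANTCA in Clec4a2 and Clec12a (7.81%), the interferon response motif GAAANNGAA in Clec4d (8.56%), the TATA motif TATAAA in Clec4a2 and Clec4e (8.32%), and the NF-κB motif GGGANNTTC in Clec5a (3.94%). A match of letters is a description and not a binding site. Those of the most abundant receptor (Clec4e, chr6:123289822-123290121, reverse strand), of the 2 that rose (Clec5a, chr6:40585756-40586055, reverse strand; Clec12a, chr6:129349994-129350293, forward strand) and of the largest fall (Clec4a2, chr6:123122440-123122739, forward strand) are shown 5′ to 3′, with motif matches in capitals.
Clec4e: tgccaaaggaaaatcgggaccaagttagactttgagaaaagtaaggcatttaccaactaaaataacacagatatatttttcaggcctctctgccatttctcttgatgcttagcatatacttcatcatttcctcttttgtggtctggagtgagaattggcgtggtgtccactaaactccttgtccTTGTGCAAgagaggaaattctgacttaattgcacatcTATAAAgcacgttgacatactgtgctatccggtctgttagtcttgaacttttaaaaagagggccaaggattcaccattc
Clec5a: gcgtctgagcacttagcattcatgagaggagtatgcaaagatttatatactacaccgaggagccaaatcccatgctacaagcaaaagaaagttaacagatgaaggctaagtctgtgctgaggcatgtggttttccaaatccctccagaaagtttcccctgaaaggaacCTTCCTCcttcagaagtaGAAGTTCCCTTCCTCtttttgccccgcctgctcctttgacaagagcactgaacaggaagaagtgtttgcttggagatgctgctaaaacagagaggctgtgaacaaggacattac
Clec12a: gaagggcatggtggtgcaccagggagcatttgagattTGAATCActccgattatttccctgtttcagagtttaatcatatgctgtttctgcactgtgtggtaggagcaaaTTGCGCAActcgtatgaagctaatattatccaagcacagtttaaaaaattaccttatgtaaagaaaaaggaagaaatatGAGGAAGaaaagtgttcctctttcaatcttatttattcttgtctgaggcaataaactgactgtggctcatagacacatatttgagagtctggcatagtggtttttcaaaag
Clec4a2: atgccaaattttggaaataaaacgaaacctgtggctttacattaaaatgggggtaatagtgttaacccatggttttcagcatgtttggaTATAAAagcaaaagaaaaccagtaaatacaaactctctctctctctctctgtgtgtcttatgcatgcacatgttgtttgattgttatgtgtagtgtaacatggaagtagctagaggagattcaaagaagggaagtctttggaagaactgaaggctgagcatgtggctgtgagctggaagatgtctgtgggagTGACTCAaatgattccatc
The capitals mark, in order, a C/EBP and a TATA match in Clec4e, with first bases 66 and 29 bases before the start; 2 PU.1 matches in Clec5a, at 82 and 56 bases before it, the second sharing 1 base with an NF-κB match that begins 64 bases before it; AP-1, C/EBP and PU.1 matches in Clec12a, at 213, 140 and 61 bases before it; and in Clec4a2 a TATA match 161 bases before the start and an AP-1 match 31 bases after it. The 2 receptors that rose both hold the PU.1 letters, but so do Clec4a1 and Clec4d, which fell.

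The adaptors that Mincle, MCL, Dectin-2 and MDL-1 use were higher. Fcer1g, the FcRγ chain used by Mincle, MCL and Dectin-2, had 845, 812 and 794 CPM in Cd226-/-, against 621, 627 and 631 CPM in WT. Tyrobp (DAP12), the adaptor of MDL-1, had 375, 399 and 386 CPM in Cd226-/-, against 275, 299 and 278 CPM in WT. Neither gene overlapped between genotypes, and they rose 1.30-fold and 1.36-fold (adjusted p = 2.33e-06 and 5.23e-07). The receptors Clec4n and Clec4d that use Fcer1g fell while Fcer1g rose.

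Further down the pathway, the largest rise was in Malt1, the paracaspase of the CARD9 complex. Malt1 had 594, 664 and 655 CPM in Cd226-/-, against 340, 316 and 313 CPM in WT (1.98-fold; adjusted p = 9.35e-12). Its partners Card9 (26.2 ± 1.12 CPM in Cd226-/- and 23.9 ± 2.05 CPM in WT; adjusted p = 0.261) and Bcl10 (56.2 ± 1.33 CPM in Cd226-/- and 55.8 ± 4.43 CPM in WT; adjusted p = 0.939; all SD, n = 3) did not pass. Syk had 628, 611 and 614 CPM in Cd226-/-, against 676, 657 and 665 CPM in WT, without overlap. It missed the threshold (log2 fold change -0.11 ± 0.047 (SE); adjusted p = 0.0865), but passed with scaling by library size (0.00615) and without Cd226-/- replicate 1 (0.0248), over a range of 0.00615 to 0.408.

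Of 31 adaptor and signalling genes in all, 11 rose, 2 fell and 18 did not pass. The share called in either direction was close to the 39.6% among genes averaging 20 CPM or more (30.9% of all genes tested). Hcst, Vav3 and Nfatc2 averaged less than 20 CPM. By direction, 16.1% of all genes tested were higher and 14.8% lower, and the lean of this list to higher was not tested. With scaling by library size alone, 8 rose and 4 fell. The median log2 fold change of the 31 genes was 0.074, beside -0.0045 for all genes tested. The ubiquitin ligase gene Cblb, a brake on Dectin signalling in mice, rose 1.48-fold (adjusted p = 2.19e-07), the kinase gene Src 1.22-fold (3.08e-04), Map3k14, encoding the NF-κB inducing kinase, 1.35-fold (7.36e-04), and the ubiquitin ligase gene Traf6 1.22-fold (0.00112). Pik3cd, encoding a catalytic subunit of PI3-kinase, rose 1.35-fold (0.00342). Neither Map3k14 nor Pik3cd passed with Cd226-/- replicate 1 alone (adjusted p = 0.0571 and 0.140; the lowest over their alternatives were 1.52e-04 and 1.67e-04). Ptpn6 (SHP-1), the phosphatase of the inhibitory receptors, had 264 ± 21.3 CPM in Cd226-/- and 236 ± 3.63 CPM in WT (SD, n = 3 each; adjusted p = 0.0341). Its call was lost by limma-voom (0.0510), with scaling by library size alone (0.175), with Cd226-/- replicate 1 alone (0.856), and without Cd226-/- replicate 2 (0.159), Cd226-/- replicate 3 (0.157), WT replicate 1 (0.142), WT replicate 2 (0.0732) or WT replicate 3 (0.0815), within a range of 1.73e-04 to 0.856. Those that fell were Btk (log2 fold change -0.20, adjusted p = 0.00762) and Rubcn (-0.28, 0.00351). The number that fell was 4 without Cd226-/- replicate 1, and the number that rose was 6 with that replicate alone.

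**Figure D4:**
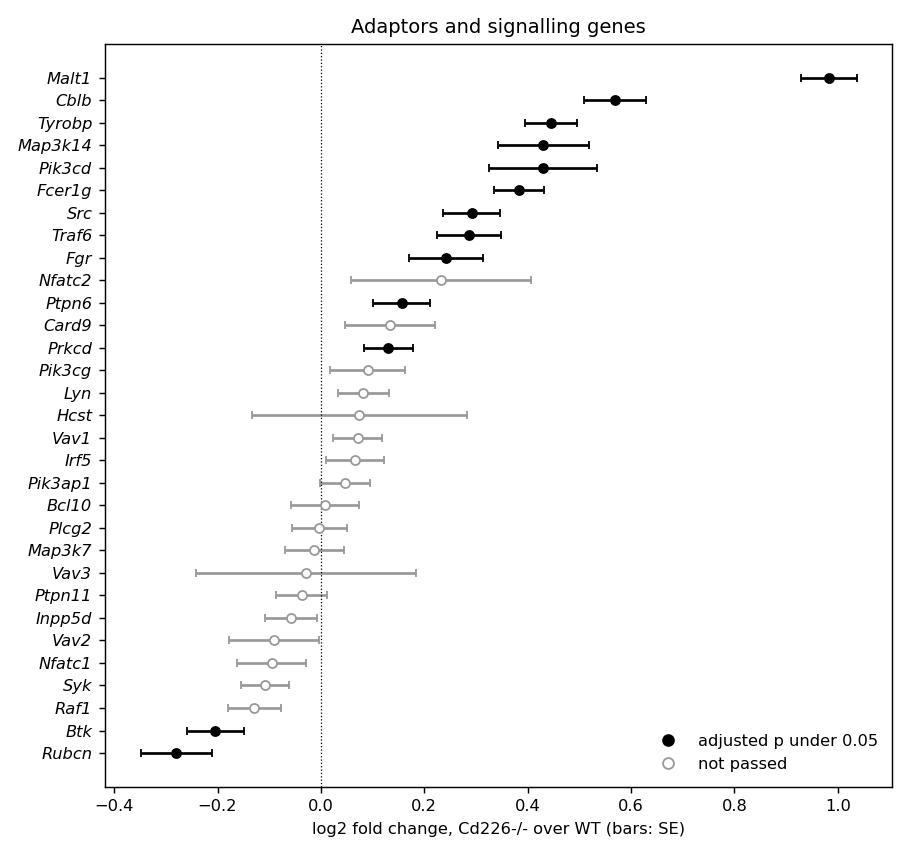
Log2 fold change of 31 adaptor and signalling genes, Cd226-/- over WT, with bars for the SE from edgeR; filled points passed an adjusted p under 0.05. Malt1 stands highest at 0.98, Fcer1g and Tyrobp are among the 11 that rose, and Btk and Rubcn are the 2 that fell.

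Of 33 other C-type lectin receptors, 16 had enough counts to be tested, and 4 rose and 3 fell (median log2 fold change 0.081), beside 16.1% higher and 14.8% lower among all genes tested. The early activation antigen gene Cd69 rose 2.42-fold (12.8 ± 1.39 CPM in Cd226-/- and 5.26 ± 0.908 CPM in WT), Klrk1 (NKG2D) 2.33-fold (5.84 ± 0.665 CPM in Cd226-/- and 2.49 ± 0.544 CPM in WT) and Ly75 (DEC-205) 1.45-fold (119 ± 3.48 CPM in Cd226-/- and 82.2 ± 3.48 CPM in WT; SD, n = 3 each). Their adjusted p-values were 8.20e-07, 1.18e-04 and 1.21e-07. Olr1 (LOX-1), a receptor for oxidised LDL, had 18.8, 27.3 and 23.7 CPM in Cd226-/-, against 50.9, 59.6 and 52.0 CPM in WT, and fell (log2 fold change -1.22, adjusted p = 5.25e-06). Thbd, encoding thrombomodulin, fell by 1.48 on the log2 scale (adjusted p = 1.69e-06). Clec2i was called higher and Cd93 lower, but neither held throughout. The adjusted p of Clec2i was 0.0681 without Cd226-/- replicate 3, 0.0688 without WT replicate 1 and 0.0631 without WT replicate 3, within a range of 0.00669 to 0.139. That of Cd93 was 0.0912 without Cd226-/- replicate 1, 0.135 without Cd226-/- replicate 2, 0.0679 without WT replicate 1, 0.0574 without WT replicate 3 and 0.0650 with a replicate block, within a range of 1.10e-08 to 0.135. The mannose receptor Mrc1 did not pass (adjusted p = 0.597), and its sign turned without Cd226-/- replicate 3 (log2 fold change 0.49 with all 6 libraries and -0.31 without it).

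Of 16 cytokine and enzyme genes known to be induced through these receptors, 13 were tested, of which 3 rose and 3 fell (median log2 fold change 0.098), beside the same 16.1% and 14.8% of all genes tested. They are induced by LPS as well, which all cells received. The neutrophil chemokine genes Cxcl2 and Cxcl1 fell (log2 fold changes -1.58 and -1.27) and so did Il6 (-0.49; adjusted p = 8.47e-04). Ptgs2, the inducible cyclooxygenase, had 926, 759 and 722 CPM in Cd226-/-, against 572, 450 and 533 CPM in WT, and rose 1.55-fold (adjusted p = 0.0169), as did Il12b, a gene for an interleukin-12 chain (1.60-fold, 1.24e-04). Nlrp3 was called higher (log2 fold change 0.19, adjusted p = 0.0101), but not without Cd226-/- replicate 2 (adjusted p = 0.0676) or WT replicate 2 (0.0656), with scaling by library size alone (0.0558) or with Cd226-/- replicate 1 alone (0.221), within a range of 7.07e-04 to 0.221. Tnf was listed at 0 in all 6 libraries and is not informative here.

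Markers of other cells differed between genotypes for some cell types and not for others, and 30.9% of all genes tested were called. Several of the 9 receptors are also known from monocytes, neutrophils and dendritic cells. Of 9 monocyte markers, 4 rose, led by Ly6c2 (205 ± 12.2 CPM in Cd226-/- and 30.2 ± 0.745 CPM in WT, SD, n = 3 each), and 2 fell. Their summed level, most of it Fn1, was 2293 to 2443 CPM in Cd226-/- and 2890 to 3462 CPM in WT. Of 12 neutrophil markers, 4 were tested and 1 rose (Csf3r). Their sum was 261 to 268 CPM in Cd226-/- and 192 to 205 CPM in WT. Most of it was Csf3r (mean 187 CPM in Cd226-/- and 117 CPM in WT), while the defining genes Ly6g, Mpo and Elane had at most 4 counts in any library. Of 10 dendritic cell markers, 8 were tested, 5 rose and 1 fell, with a sum of 139 to 148 CPM in Cd226-/- and 92.3 to 120 CPM in WT. Most of that sum was Ccr7, Cd83 and Ccl22 (means 63.6, 36.8 and 24.0 CPM in Cd226-/-, against 43.4, 23.6 and 15.9 CPM in WT). Zbtb46 and Flt3 did not pass (edgeR adjusted p = 0.943 and 0.120). Siglech had 0 or 1 count in each library, and Xcr1 at most 3. For 10 B cell markers, 6 of 7 tested rose, with a sum of 34.6 to 46.5 CPM in Cd226-/- and 14.8 to 18.6 CPM in WT. For 8 fibroblast markers, 5 of 7 tested rose, with a sum of 774 to 807 CPM in Cd226-/- and 502 to 581 CPM in WT. T and NK cell markers (7 of 10 tested, none passed) summed to 9.32 to 10.9 CPM in Cd226-/- and 8.59 to 9.59 CPM in WT. The part of such cells in the receptor differences was not tested.

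Direction was the same for each of the 9 receptors under each of the 15 alternatives run. The alternative of an adjusted p under 0.01 reuses the reported fit, so for any gene direction could not differ there. Of 135 values, 129 also stayed on their side of the threshold, 2 lost it (Clec5a and Clec7a with Cd226-/- replicate 1 alone) and 4 gained it (all Clec4e).

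**Figure D5:**
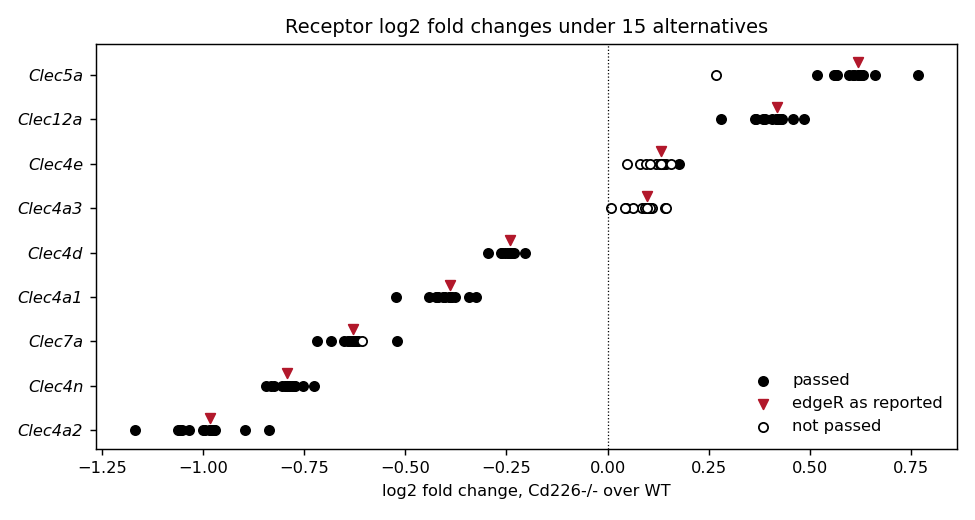
Log2 fold change of each receptor, Cd226-/- over WT, under 15 alternatives of scaling, filter, test, block, threshold and libraries; filled circles passed the threshold, open circles did not, and the red triangle above each row is the value reported. No receptor crosses 0, Clec4a2 spreads from -1.17 to -0.84, Clec5a from 0.27 to 0.77, and Clec4n only from -0.85 to -0.73.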

How the data were processed

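Per the labels' protocols, RNA was taken with Trizol and libraries followed a standard Illumina procedure. The authors deposited 1 table of raw read counts per gene symbol, not normalized, with 1 column per library, and all 6 columns were used. The submitters' processing notes name HISAT2 and GRCm38. The sources used here give no version, counting tool, annotation, strand setting or rule for multiply matching reads.

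The test was that of edgeR 4.0.16 in R 4.3.3 (filterByExpr by genotype, TMM, robust quasi-likelihood F-test, two-sided, genotype as the only term, Benjamini-Hochberg over 13215 genes; limma 3.58.1 and DESeq2 1.42.0 for alternatives). SE was taken as the absolute log2 fold change over √F, and 95% intervals use the test's degrees of freedom. CPM use TMM-scaled totals; each gene is described over 3 libraries per genotype. Libraries of 1 genotype differed beyond counting error (chi-square over degrees of freedom 2.17 to 7.76, lowest for Cd226-/- replicates 2 and 3), so all 6 were kept. The steps were tested on simulated counts.

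The members, the gene lists and the tests were chosen with earlier results of these data known. The genes named are the 9 receptors and Cd226, up to 8 called genes by adjusted p of each list, Fcer1g, Tyrobp, Syk and Card9, and each receptor's nearest profiles; Adgre1, Csf1r, Bcl10, Ptpn6, Btk, Rubcn, Mrc1, Tnf, Clec4a4 and the cell markers were named after their values were seen. So were the background at 20 CPM and the searched motifs. 1 gene of the signalling list is not reported here. Exonic lengths and positions are from GENCODE M21.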

Additional observations from a re-analysis of the deposited data

How the results depend on the processing

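The alternatives were DESeq2 size factors, library size alone, no filter on low counts, a mean of 5 CPM or more, limma-voom, the Wald test of DESeq2, a replicate block, leaving out single libraries, Cd226-/- replicate 1 as the only library of its genotype, and an adjusted p under 0.01. With the replicate block 2 receptors rose and 5 fell, as without it; deviations of same-numbered libraries correlated at -0.013 to 0.015, and not every library correlated best with its own number, so the numbers were not taken as pairs. The block ended no call of a receptor. With Cd226-/- replicate 1 alone 1 receptor rose and 4 fell, and 6 adaptor and signalling genes rose; the lone library is then assumed to vary like WT. With library size alone 4 adaptor and signalling genes fell in place of 2, and over all genes 1773 rose and 2764 fell, against 2130 and 1956 with TMM. With each library left out in turn, 2 to 3 receptors rose and 5 fell, 8 to 12 adaptor and signalling genes rose and 2 to 4 fell. A mean of at least 5 CPM left 2 other lectin receptors higher in place of 4, since fewer were tested. At an adjusted p under 0.01, 1167 of all genes fell and 1 receptor-induced gene rose. Of 508 values for 34 other named genes, 469 kept direction and side of the threshold, 30 lost the threshold, 2 gained it and 7 changed sign, all of these in genes that did not pass: Bcl10 had log2 fold changes of -0.045 with library size alone, -0.0040 with no filter, -0.0090 without Cd226-/- replicate 2, -0.055 without WT replicate 2 (up to 0.054 with another library left out) and -0.016 with Cd226-/- replicate 1 alone, and Mrc1 had -0.31 without Cd226-/- replicate 3 (up to 0.80 with another library left out) and -0.41 with Cd226-/- replicate 1 alone. Other lectin receptors such as Clec4b2, with 0 counts in every Cd226-/- library and up to 4 in WT, are below what this depth can compare: a count of 0 allows up to 3 counts.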

Other observations

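The protein-coding genes within 200 kb of the receptors did not all move in 1 direction. Their counts stand beside 30.9% called among all genes tested (16.1% higher and 14.8% lower). Around the Clec4a1 to Clec4e cluster, 4 of 9 other genes were tested and only C3ar1, encoding the receptor for the complement fragment C3a, passed (450 ± 26.8 CPM in Cd226-/- and 529 ± 21.7 CPM in WT, SD, n = 3 each; log2 fold change -0.23, edgeR adjusted p = 0.00171; 0.130 with Cd226-/- replicate 1 alone, the highest over its alternatives, the lowest being 9.14e-06). Its neighbours Foxj2 and Necap1 had log2 fold changes of 0.014 and 0.0077 and did not pass. The paralogs Clec4a4, Clec4b1 and Clec4b2, which lie between the abundant receptors, had 44, 14 and 7 counts over all 6 libraries, against 76142 for Clec4n.

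Around Clec12a and Clec7a, 7 of 16 other genes were tested, and 2 rose and 2 fell, beside 30.9% called among all genes tested. Of the called genes, from one end to the other, Cd69 rose, Clec12a rose, Clec7a, Olr1 and Gabarapl1 fell and Klrk1 rose. Clec2d (before Cd69), Clec9a (between Clec12a and Clec7a) and Klrc1 (after Klrk1) did not pass (edgeR adjusted p = 0.240, 0.652 and 0.232). Gabarapl1, an autophagy gene of the ATG8 family, had 97.4 ± 2.01 CPM in Cd226-/- and 132 ± 3.33 CPM in WT (SD, n = 3 each; log2 fold change -0.43, edgeR adjusted p = 9.30e-07). Near Clec5a, 3 of 11 other genes were tested and 1 fell, Agk, encoding acylglycerol kinase (6.27 ± 0.343 CPM in Cd226-/- and 9.45 ± 0.985 CPM in WT, SD, n = 3 each; adjusted p = 0.00296, and 0.0547 with Cd226-/- replicate 1 alone, within a range of 0.00105 to 0.0547). These genes were picked by position.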
